A study of Mus musculus with 16 samples.

Results

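The potassium channel genes described here are the 84 genes on the array whose symbol starts with Kcn. They were chosen by symbol alone: every probe set (a group of short probes that reads 1 transcript) whose single gene symbol in the platform annotation starts with Kcn was kept, which gave 167 of the 45101 probe sets. Of the 84 genes, 81 encode channel subunits or their auxiliary proteins, with 159 probe sets. The other 3 are RNAs that carry such a symbol because of where they lie: Kcnq1ot1, Kcnmb4os1 and Kcnmb4os2. The 16 arrays came from C57BL/6J mice that were wild type (WT) or homozygous for a 4-bp deletion in the SINE exon of Pgc1α, just behind the start codon of that isoform (SINE KO, from 1 founder line made with CRISPR/Cas9). Both sexes and 2 dissections were sampled, the cerebellum (cb) and the rest of the brain (Br, the whole brain without cerebellum), with 2 arrays for each of the 8 combinations. Per the methods, remnants of the brain stem were cleaned off by hand before the brain was split. WT and KO mice were age-matched littermates, and the age is not given in the sources used here. The reference isoform of Pgc1α was left in place in the KO, and all 5 Ppargc1a probe sets were detected on all 16 arrays. Which isoforms they read is not given in the sources used here, so they do not check the deletion.

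Potassium channels let potassium ions leave or enter the cell and so set the resting potential, end the action potential and time repetitive firing. Voltage-gated channels (Kv) open on depolarisation, inward rectifiers (Kir) hold the resting potential, 2-pore-domain channels (K2P) carry leak currents, and calcium- or sodium-activated channels follow the ions that enter during activity. Some Kv subunits, named electrically silent, form no channel alone and change the behaviour of Kv2 channels when they assemble with them. In the cerebellum, Kv3 and BK channels are known for the fast firing of Purkinje cells, whereas many Kv1, Kv4 and Kv7 subunits are used throughout the brain.

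The deposited table holds no intensities. Each value is 1 of 5 distinct numbers, which were read as a detection call: level 2 as detected, level 1 as marginal, and 0, -1 or -2 as absent calls. This reading is not given by the authors or the file. A call carries no amount: transcripts seen on every array can still differ in level between groups, and fold changes were not analysed here. In tissue samples, fewer cells of a type and less RNA per cell cannot be told apart. An array detected between 25517 and 28155 probe sets. The WT female cerebellum replicate 2 stood apart from its group: it detected 66.7% of the probe sets of cerebellar granule cell markers, against 85.7 to 95.2% on the other 7 cerebellum arrays and 42.9 to 71.4% in the rest of the brain. It detected 73.9% of Purkinje cell marker probe sets (91.3 to 95.7% on the other 7) and 64.7% of striatal ones (41.2 to 58.8%). For cortex and hippocampus markers it detected 53.3%, within the 40 to 53.3% of the other 7. Hindbrain markers split the cerebellum arrays otherwise: 40.9% on WT female replicate 1, 59.1% and 54.5% on KO females, 9.09 to 13.6% on males. The WT female replicate 2 detected 9.09% of them. The part of hindbrain tissue in the female comparisons was not tested. The main results that the WT female cerebellum replicate 2 touches are given with and without it. Exceptions are the genotype split of the subfamilies and the genotype and sex counts within the cerebellum.

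Of the 167 Kcn probe sets, 67 (40.1%) were detected on all 16 arrays, 38 (22.8%) on none and 62 (37.1%) on some. Over the whole array these shares were 48%, 27% and 25%. A gene was taken as detected on an array if at least 1 of its probe sets was. By this count 40 of the 81 channel subunit genes were detected on all 16 arrays, 14 on none and 27 on some.

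The genes detected throughout covered most ways in which a neuron or glial cell handles potassium. Among the voltage-gated subunits they were Kcna1, Kcna2, Kcna4 and Kcna6 (Kv1, low-threshold channels of axons), Kcnc1, Kcnc2 and Kcnc4 (Kv3, which repolarise fast-firing neurons), Kcnd1, Kcnd2 and Kcnd3 (Kv4, the A-type current of dendrites), Kcnh1 and Kcnh2 (eag and erg), and Kcnq3 and Kcnq5 (Kv7, the M-current). The inward rectifiers detected throughout were Kcnj3, Kcnj6 and Kcnj9 (G-protein-gated), Kcnj10 and Kcnj16 (glial potassium buffering), Kcnj8 and Kcnj11 (ATP-sensitive), Kcnj12 and Kcnj13. The 2-pore-domain genes were Kcnk1, Kcnk2, Kcnk6 and Kcnk10. Kcnma1, the pore of the BK channel, was detected by all 5 of its probe sets on all 16 arrays, as were all 4 probe sets of the sodium-activated Kcnt1 and Kcnt2. The small-conductance Kcnn2, the silent subunits Kcng4 and Kcns2, and the auxiliary subunits Kcnab1, Kcnab2, Kcnip1, Kcnip3, Kcnip4, Kcnmb2 and Kcnmb4 completed the 40.

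The 14 channel subunit genes without a detected value were Kcna7, Kcne1, Kcne3, Kcne4, Kcng2, Kcnh7, Kcnj1, Kcnj2, Kcnk7, Kcnk16, Kcnmb1, Kcnn3, Kcnn4 and Kcnq1. Several are known from other organs: Kcnj1 from the kidney, Kcnq1 and Kcne1 from heart and inner ear, Kcnk16 from the pancreas, and Kcnmb1 from smooth muscle. Others, such as Kcnn3, Kcnh7 and Kcnj2, are known from brain. A probe set that stays undetected does not show that the transcript is missing, because probe sets of 1 gene often differed. Of the 46 genes with several probe sets, 20 had a pair that differed by more than 8 arrays, and 9 had one on all arrays and another on none. Those 9 were Kcna2, Kcnc1, Kcnd2, Kcnd3, Kcnj6, Kcnj9, Kcnj11, Kcnk10 and the RNA Kcnq1ot1, and the other 11 with such a pair were Kcna1, Kcnab2, Kcnd1, Kcnf1, Kcng1, Kcnip1, Kcnip2, Kcnip3, Kcnk3, Kcnk13 and Kcnn1.

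The first comparison asked which channel genes were seen in which of the brain parts. Kcn transcripts were detected more often outside the cerebellum. Of the 167 probe sets, 47 (28.1%) were detected on more Br than cb arrays, 10 (5.99%) on more cb arrays and 110 on equally many. Over the whole array, 12.7% and 9.64% leaned these ways. Without the WT female cerebellum replicate 2, 48 Kcn probe sets were detected on a higher share of Br arrays and 13 on a higher share of cb arrays. A lean of 4 or more of the 8 arrays was seen towards the rest of the brain for 21 Kcn probe sets (12.6%, against 2.77% of all probe sets) and towards the cerebellum for 2 (1.2%, against 1.74%).

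Each probe set was tested with Fisher's exact test, two-sided, on 8 cb against 8 Br arrays. The p-values were adjusted by the Benjamini-Hochberg method over the 3873 probe sets detected on 5 to 11 arrays, the only ones that can reach an unadjusted p under 0.05, and an adjusted p under 0.05 is named a call. Of the 23 Kcn probe sets among these, 12 were called higher in the rest of the brain, where 11.5% of all those tested were called in that direction. None of the 23 was called higher in the cerebellum, where 5.55% were. Of the 15 Kcn probe sets with an unadjusted p under 0.05 in this exact test, 3 lost it on adjustment. With adjustment over all 45101 probe sets Fisher's exact test called no probe set in either direction, Kcn or other (0%), although 1247 had an unadjusted p under 0.05, so the calls depend on that limit. Even complete separation, with p = 0.000155 in the exact test, then had an adjusted p of 0.0501. As a count, 5 Kcn probe sets were detected on all 8 Br arrays and no cb array (0.255% of all probe sets were), and 0 the other way round (0.0554%). Among the probe sets tested, the median difference in detected arrays, cerebellum minus rest of brain, was -6 for Kcn and -1 for all.

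**Figure D1:**
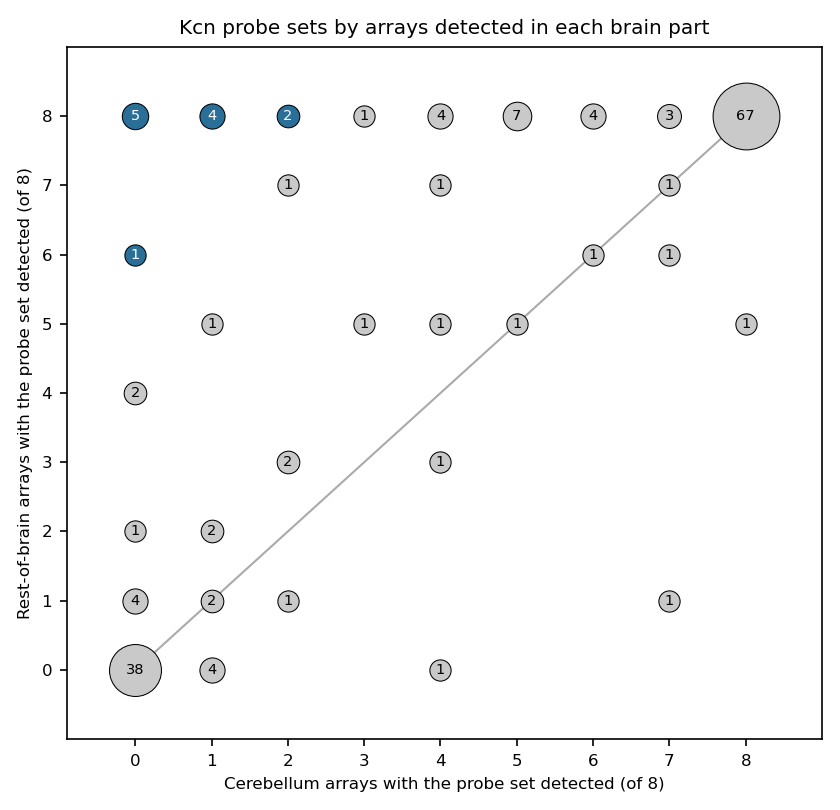
The 167 Kcn probe sets by the number of cerebellum arrays (horizontal axis, 0 to 8) and rest-of-brain arrays (vertical axis, 0 to 8) on which each was detected; the number in a circle and its size give the probe sets at that position, and blue circles are the 12 called higher in the rest of the brain. The 67 detected on all arrays sit at the upper right and the 38 detected on none at the lower left, and more of the others lie above the diagonal of equal counts than below it.

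The 12 calls came from 9 genes. Counted by gene, 4 of these were called (Kcnv1, Kcnh3, Kcnj4 and Kcng1). The other 5 were detected on too many arrays through another probe set to be tested. That count covered 1222 genes, and the share of them called is not given here. It also called Kcnk12, which leaned to the cerebellum (adjusted p = 0.0436, Fisher's exact test). A stratified exact permutation test over probe sets did not call Kcna4, Kcnf1 and Kcnq5. The 5 probe sets that separated the brain parts completely read Kcnv1, Kcnh3 and Kcnj4. Kcnv1 encodes Kv8.1, an electrically silent subunit. Its probe sets 1429741_at and 1453273_at were detected on all 8 Br arrays and on no cb array (adjusted p = 0.0043, Fisher's exact test), and its remaining one, 1439333_at, on all 8 Br arrays and on 1 cb array, the WT female replicate 2 (adjusted p = 0.0138, Fisher's exact test). All 3 Kcnv1 probe sets thus gave the same pattern, and without that array none of them was seen in the cerebellum.

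Kcnh3 encodes elk2, a voltage-gated channel of the eag superfamily known from the forebrain. Its probe sets 1459107_at and 1445805_x_at were detected on all 8 Br arrays and no cb array (adjusted p = 0.0043, Fisher's exact test). The second had a marginal call on 3 cb arrays (the WT female replicate 1, the WT male replicate 2 and the KO male replicate 2) and lost its call where marginal values were counted as detected. The suffix _x_at marks a probe set with probes that can match other transcripts. The other Kcnh3 probe sets, 1421619_at and 1431690_at, were detected on no array.

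Kcnj4, the inward rectifier Kir2.3, was read by 1 probe set, 1451808_at. It was at level 2 on all 8 Br arrays and at level 0 on all 8 cb arrays (adjusted p = 0.0043, Fisher's exact test). It was the only inward rectifier called.

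Kcnab3 (1421790_a_at), Kcng1 (1457052_at) and Kcnip2 (1425870_a_at) were detected on all 8 Br arrays and on 1 cb array each (adjusted p = 0.0138, Fisher's exact test). Kcnab3 encodes a cytoplasmic β subunit of Kv1 channels, Kcng1 the silent subunit Kv6.1, and Kcnip2 the calcium sensor KChIP2, which assembles with Kv4 channels. The single cb array was the WT female replicate 2 for Kcnab3 and Kcng1 and the WT male replicate 2 for Kcnip2. Their other probe sets differed: 1423950_at of Kcnab3 was detected on 5 cb and 8 Br arrays, 1436275_at of Kcnip2 likewise on 5 and 8, 1421783_a_at of Kcnip2 on 0 and 2, and 1459656_at of Kcng1 on none.

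The last 3 calls were those of Kcna4, Kcnq5 and Kcnf1. Kcna4 (1422255_at, Kv1.4, an inactivating axonal channel) was detected on all 8 Br arrays and on 2 cb arrays, and so was Kcnq5 (1441071_at, Kv7.5, an M-current subunit), both with an adjusted p of 0.0409 in Fisher's exact test. Both genes also had a probe set seen on each of the 16 arrays, so these calls concern what 1 probe set reads and not the gene as a whole. Kcnf1 (1441300_at, the silent subunit Kv5.1) was detected on 6 Br arrays and no cb array (adjusted p = 0.0409, Fisher's exact test). The missing Br arrays were the WT male replicate 2 and the KO male replicate 1. Its other probe set, 1454768_at, was detected on 7 cb and 8 Br arrays.

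The 12 probe sets were chosen by their calls on these same arrays, so a wide split between the brain parts follows from the choice. They gave 94 detected values of 96 in the rest of the brain and 8 of 96 in the cerebellum. Of the 8, 5 lay on the WT female replicate 2, and 3 of 84 on the other 7 cerebellum arrays. In the rest of the brain, WT and KO arrays each gave 47 of 48, and in the cerebellum WT arrays gave 7 of 48, 5 of them on that replicate, and KO arrays 1 of 48. Without the WT female replicate 2 all 12 calls were kept, and Kcnj14 was added in the rest of the brain and Kcnk12 in the cerebellum.

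**Figure D2:**
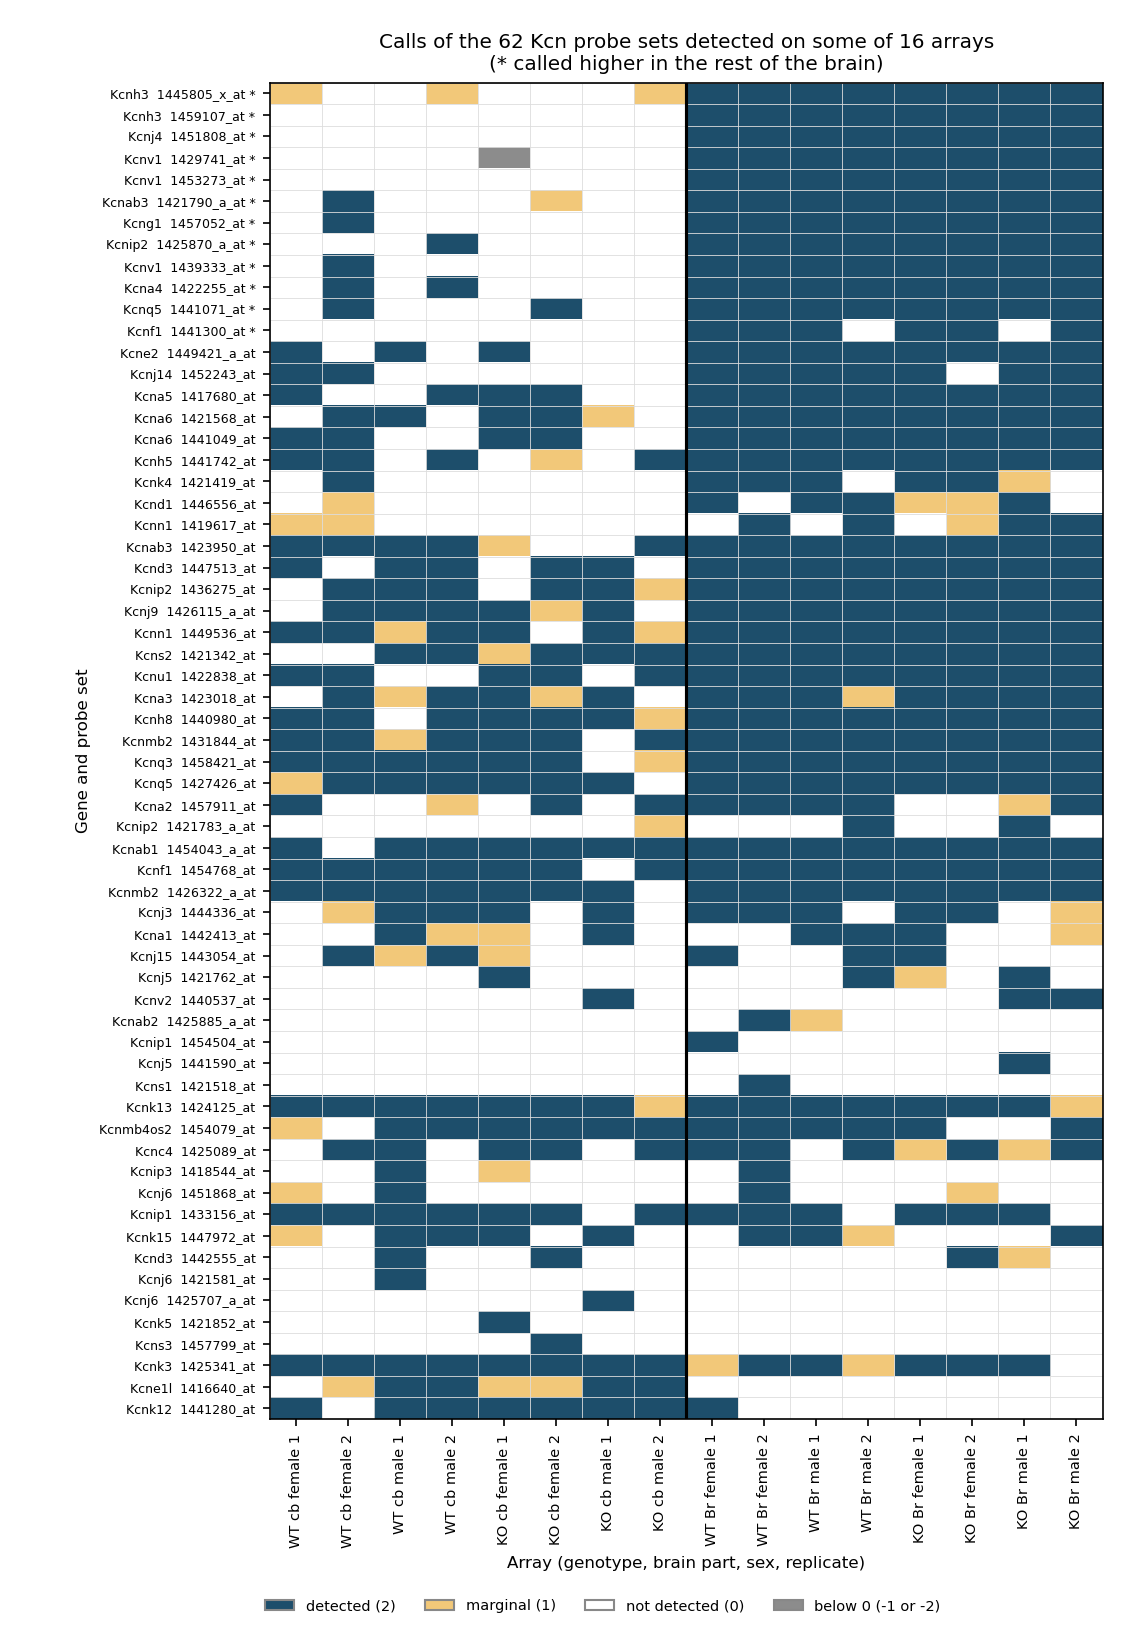
Detection calls of the 62 Kcn probe sets detected on some of the 16 arrays, 1 row per probe set and 1 column per array, ordered from the largest lean to the rest of the brain (top) to the largest lean to the cerebellum (bottom); dark blue is detected, yellow marginal, white not detected and grey a value below 0, the black line parts cerebellum from rest of brain, and asterisks mark the 12 calls. The 12 called rows, chosen by these same calls, are filled on 94 of 96 cells at the right. At the left they are filled on 8 of 96, 5 of them in the second column, the WT female cerebellum replicate 2.

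Just outside the threshold stood Kcnk12 and Kcne2. Kcnk12 (1441280_at), which encodes THIK-2, a 2-pore-domain subunit, was the member that leaned most to the cerebellum: it was detected on 7 cb arrays and 1 Br array (adjusted p = 0.0507, Fisher's exact test). The exceptions were the WT female cerebellum replicate 2, where it was not detected, and the WT female rest-of-brain replicate 1, where it was. Without either of them Kcnk12 was called higher in the cerebellum, as it was when counted by gene and with the replicate block described below. Kcne2 (1449421_a_at), an auxiliary subunit known from the choroid plexus, was detected on all 8 Br arrays and on 3 cb arrays (adjusted p = 0.0944, Fisher's exact test). The 3 cb arrays were the first replicates of WT females, WT males and KO females. On these, 10 to 11 of 13 probe sets of 7 other choroid plexus markers were detected, and on the other 5 cb arrays 6 to 9 of 13. In the rest of the brain it was 10 to 11. The part of choroid plexus tissue in the Kcne2 calls was not tested. Kcnj13, the inward rectifier of the same epithelium, was detected on all 16 arrays. Kcnj14 (1452243_at, Kir2.4) followed with 2 cb and 7 Br arrays (adjusted p = 0.126, Fisher's exact test), both cb arrays being WT females.

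For 64 of the 84 genes RefSeq promoters (build GRCm38.p6) were at hand, 89 windows in all, and the 250 bases before the start site were searched on both strands for 6 short motifs. These were the GC box (GGGCGG), the CCAAT box (CCAAT), the TATA box (TATAAA), the cyclic AMP response element (TGACGTCA) and the left (CAGCACC) and right (GGACAGC) parts of RE1, the site of the repressor REST. Of the 9 called genes, 5 had a window (Kcna4, Kcnf1, Kcnip2, Kcnj4 and Kcnq5). The windows of the 4 with a single start site are shown as examples of genes called higher in the rest of the brain, with that of Kcnk12 as the member that leaned most to the cerebellum, in lower case from 5′ to 3′ with every match in capitals.
Kcnj4 (chr15:79505242-79505491, minus strand): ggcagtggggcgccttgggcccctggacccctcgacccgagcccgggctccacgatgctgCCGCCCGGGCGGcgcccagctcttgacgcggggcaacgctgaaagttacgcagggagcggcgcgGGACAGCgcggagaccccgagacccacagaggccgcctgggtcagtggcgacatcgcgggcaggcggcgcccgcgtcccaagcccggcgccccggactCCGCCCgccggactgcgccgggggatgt
Kcnip2 (chr19:45816064-45816313, minus strand): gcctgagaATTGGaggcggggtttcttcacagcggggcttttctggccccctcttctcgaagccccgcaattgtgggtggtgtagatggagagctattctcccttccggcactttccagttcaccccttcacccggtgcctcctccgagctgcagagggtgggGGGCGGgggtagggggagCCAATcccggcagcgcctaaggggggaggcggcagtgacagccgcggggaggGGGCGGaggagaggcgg
Kcna4 (chr2:107290339-107290588, plus strand): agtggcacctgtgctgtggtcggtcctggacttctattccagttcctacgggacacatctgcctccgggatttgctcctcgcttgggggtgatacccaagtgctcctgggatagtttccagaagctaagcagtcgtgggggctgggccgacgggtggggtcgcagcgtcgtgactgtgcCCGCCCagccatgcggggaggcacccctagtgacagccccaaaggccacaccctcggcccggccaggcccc
Kcnf1 (chr12:17176889-17177138, minus strand): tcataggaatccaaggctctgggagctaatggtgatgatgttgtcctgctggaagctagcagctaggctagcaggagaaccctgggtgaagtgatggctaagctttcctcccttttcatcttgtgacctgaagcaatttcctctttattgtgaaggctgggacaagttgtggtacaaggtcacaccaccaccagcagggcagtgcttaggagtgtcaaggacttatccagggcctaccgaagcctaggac
Kcnk12 (chr17:87797995-87798244, minus strand): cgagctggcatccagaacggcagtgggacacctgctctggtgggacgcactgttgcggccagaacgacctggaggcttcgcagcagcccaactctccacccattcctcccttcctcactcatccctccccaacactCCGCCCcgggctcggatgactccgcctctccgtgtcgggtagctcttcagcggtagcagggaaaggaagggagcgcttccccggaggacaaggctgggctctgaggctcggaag
Kcnj4 held 35 CG pairs in 250 bases, 3 GC boxes, of which 2 adjoin without overlap, and 1 right part of RE1. Kcnip2 held 15 CG pairs, 2 GC boxes and 2 CCAAT boxes, Kcna4 held 14 CG pairs and 1 GC box, and Kcnk12, the member that leaned to the cerebellum, held 16 CG pairs and 1 GC box. Kcnf1 held 1 CG pair and none of the 6 motifs. Kcnq5, not shown, has 2 windows: one held a CCAAT box and a left part of RE1, and the other a right part of RE1. No motif searched was found in all 5 called genes with a window. A GC box was found in 44.9% of the Kcn windows and 32.7% of all 32851 windows, a CCAAT box in 30.3% and 33.8%, a TATA box in 3.37% and 12.4%, a cyclic AMP response element in 0% and 1.55%, and the left and right parts of RE1 in 6.74% and 10.1% against 5.73% and 5.28%. The median number of CG pairs was 7 in the Kcn windows and 6 in all. A match describes the letters in the window and not a bound site.

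By class, and leaving aside Slo3 with its 1 probe set (62.5% and 100%), the lean to the rest of the brain was steepest among the electrically silent subunits (Kv5, Kv6, Kv8 and Kv9). Of their 15 probe sets, 26.7% ± 5.04 (SD, n = 8) were detected per cerebellum array and 60.8% ± 4.27 (SD, n = 8) per rest-of-brain array, and the 2 ranges (20 to 33.3% and 53.3 to 66.7%) did not overlap. Of these probe sets 9 leaned to the rest of the brain, 5 with a call, and 3 of the 5 calls were those of Kcnv1. Kcns1, Kcnv2 and 1454768_at of Kcnf1 leaned that way by a single array. To the cerebellum leaned 1 (Kcns3), also by a single array. The Kv2 genes (Kcnb), whose products they assemble with, have no probe set among the 167 and were not analysed here. Pore-forming Kv subunits stood at 60.8% ± 5.12 and 76.2% ± 1.67 (SD, n = 8 each), also with ranges apart, and auxiliary subunits at 51.3% ± 5.03 and 63.4% ± 3.16 (SD, n = 8 each), with ranges that touch at 58.6%. For inward rectifiers the shares were 48.8% ± 5.01 and 56% ± 2.96 and for calcium-activated channels 60.2% ± 4.7 and 68.2% ± 4.86 (SD, n = 8 each), with overlapping ranges. The 2-pore-domain channels were the exception in direction, with 47.2% ± 5.14 per cb array and 42.4% ± 6.6 per Br array (SD, n = 8 each), again overlapping. Without the WT female replicate 2 the cerebellum shares were 25.7% for silent, 60% for pore-forming and 51.2% for auxiliary subunits, 48.4% for inward rectifiers, 59.7% for calcium-activated and 47.6% for 2-pore-domain channels.

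Among the 19 subfamilies, 15 had a higher mean share in the rest of the brain, 3 were equal and 1, K2P, was higher in the cerebellum. The ranges over arrays lay apart in 4: Kv1 (61.7% of probe sets per cb array and 80.5% per Br array), Kv β (60.4% and 85.4%), the eag, erg and elk channels (42.5% and 70%) and Kv8 (6.25% and 81.2%). Kv7 stood at 62.5% and 83.3%, Kv5 at 43.8% and 87.5%, Kv6 at 28.1% and 50%, SK and IK at 27.1% and 41.7%, and the KChIPs at 64.6% and 77.1%. Small gaps were seen for Kv4 (62.5% and 69.3%), Kv9 (35% and 42.5%) and MinK-related subunits (14.6% and 16.7%). The 3 equal subfamilies were Kv3, at 80.4% in both parts, BK α and the sodium-activated Slack and Slick channels, at 100% in both. These shares describe how many probe sets were seen, and in subfamilies of few probe sets 1 probe set moves them far. Without the WT female cerebellum replicate 2, 15 subfamilies again had the higher share in the rest of the brain and K2P alone in the cerebellum, and the ranges lay apart in Kv6 too (25% and 50%), which made 5.

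**Figure D3:**
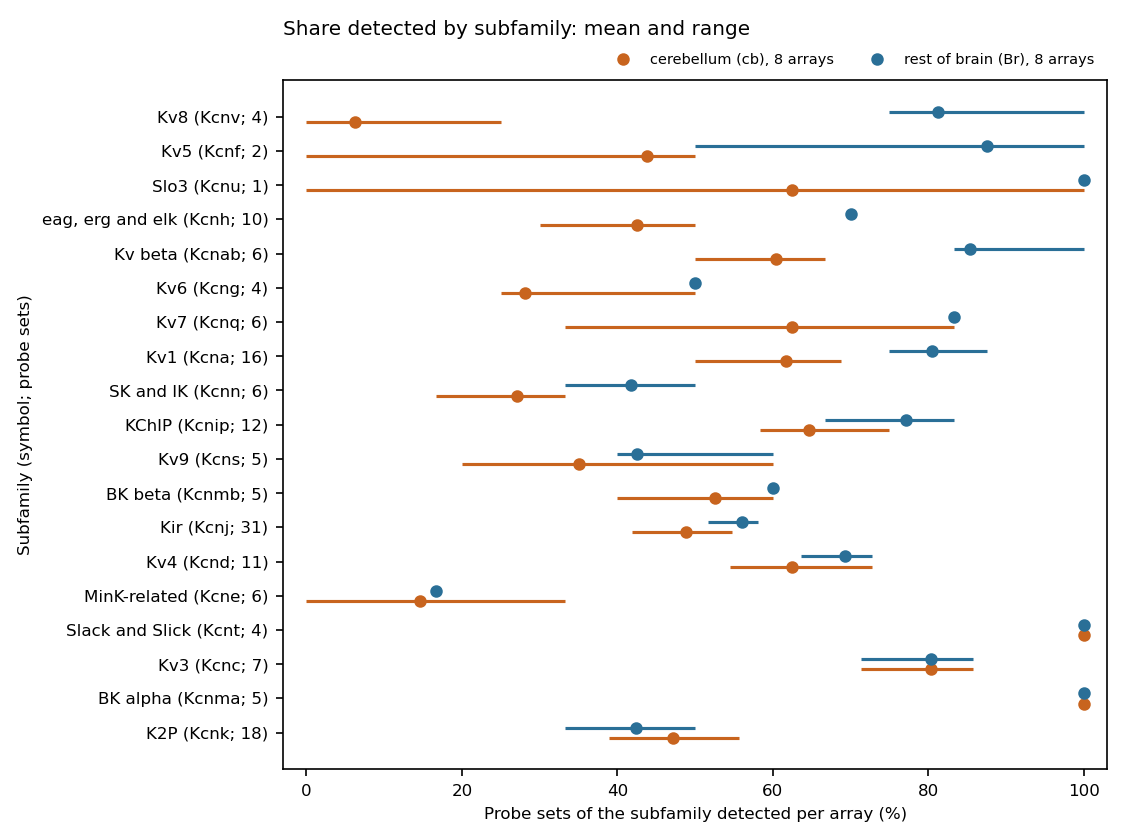
Share of each subfamily's probe sets detected per array (horizontal axis, %), with the mean as a point and the lowest to highest of 8 arrays as a line, for the cerebellum (orange) and the rest of the brain (blue); symbols and probe set numbers stand in brackets, and a point without a line has the same value on all 8 arrays. The ranges lie apart for Kv8, the eag, erg and elk channels, Kv β and Kv1, and K2P at the bottom is the only subfamily with the higher mean in the cerebellum.

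Within Kv1, 7 of 16 probe sets leaned to the rest of the brain and none to the cerebellum. Besides Kcna4, these included Kcna5 (1417680_at, 4 cb and 8 Br arrays) and Kcna3 (1423018_at, 4 and 7), channels also known from heart and from lymphocytes. Among the SK channels both probe sets of Kcnn1 leaned the same way (0 and 4 arrays for 1419617_at, 5 and 8 for 1449536_at). Both Kcnmb2 probe sets, which read a β subunit that inactivates BK, were detected on all 8 Br arrays and on 6 and 7 cb arrays. Kcnk3 (1425341_at, the acid-sensitive channel TASK-1) went the other way, with 8 cb and 5 Br arrays. Kcnu1, known as the sperm channel Slo3, was detected on 5 cb and 8 Br arrays. Of these named probe sets, apart from Kcna4, only that of Kcna3 was detected on 5 to 11 arrays and could be called. It was not (adjusted p = 0.551, Fisher's exact test), and the others named here were not tested. Among the remaining Kv1 probe sets with a lean to the rest of the brain, 1457911_at of Kcna2 and 1442413_at of Kcna1 were tested and not called.

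Per array, 53.8% ± 2.72 (SD, n = 8) of the Kcn probe sets were detected in the cerebellum (48.5, median 54.8 and 56.3%) and 65.2% ± 1.61 (SD, n = 8) in the rest of the brain (63.5, median 64.7 and 68.3%). The difference of -11.4 percentage points was larger than the pooled SD within groups of 1.56, and the ranges did not overlap. For all probe sets the same difference was -1.19 percentage points, with 59.1% ± 1.32 and 60.3% ± 1.05 (SD, n = 8 each). The Kcn share in the cerebellum was 53.5% ± 2.74 (SD, n = 7) without the WT female replicate 2.

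**Figure D4:**
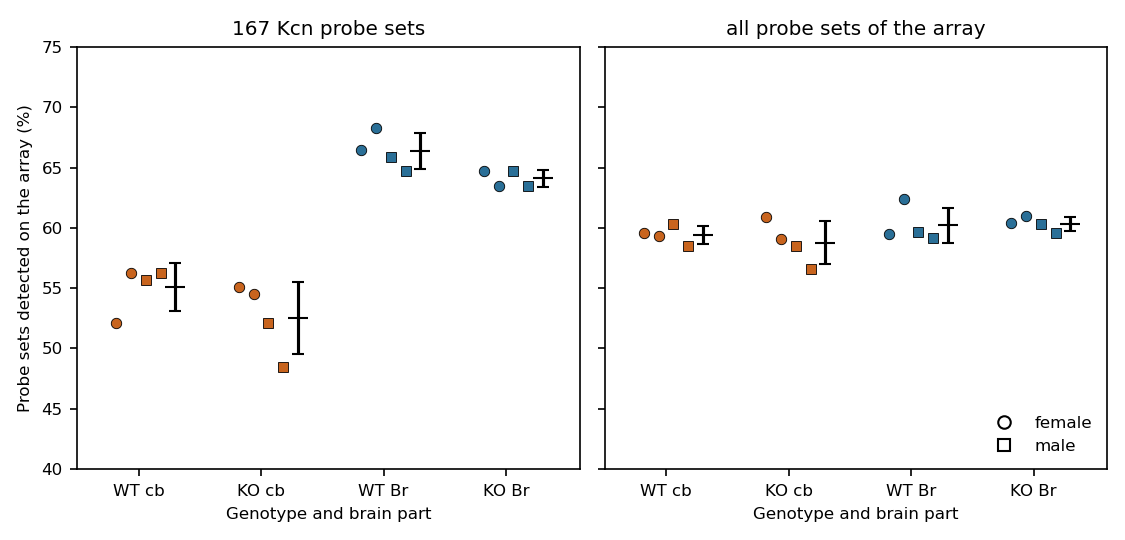
Share of the 167 Kcn probe sets (left) and of all probe sets (right) detected on each array (vertical axis, %, starting at 40), by genotype and brain part, with circles for females and squares for males; the dash and bars give the mean ± SD of 4 arrays. The Kcn shares of the 8 cerebellum arrays end at 56.3% and those of the 8 rest-of-brain arrays begin at 63.5%, whereas the shares of all probe sets overlap.

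Genes whose products work with these channels were counted for comparison: 24 genes were listed, and 21 of them had 56 probe sets on the array. Of these, 36 were detected on all 16 arrays and 5 on none, 10 leaned to the rest of the brain and 4 to the cerebellum. Akap5 (1447301_at), a scaffold that anchors kinases at M-channels, was called higher in the rest of the brain (1 cb and 8 Br arrays, adjusted p = 0.0138, Fisher's exact test), and its other probe sets were on all 16. Lrrc38, a γ subunit of BK channels, was called higher in the cerebellum (6 cb arrays and no Br array, adjusted p = 0.0409, Fisher's exact test), while the BK pore Kcnma1 was detected everywhere. The Kv4 partners Dpp6 and Dpp10 and the Kv1 partners Cntnap2, Cntn2, Lgi1 and Adam22 were each detected on all 16 arrays by at least 1 probe set.

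The second comparison asked whether loss of the SINE isoform changed which channel transcripts were seen. No Kcn probe set was called between 8 KO and 8 WT arrays by Fisher's exact test, and of all 3873 tested 0% were. None of the 23 Kcn probe sets tested had an unadjusted p under 0.05, the smallest being 0.282 in the exact test, and 38 probe sets of the array did. The stratified exact permutation test and the run over all probe sets also called 0 Kcn probe sets. With calls, only a gain or loss of detection would be seen, so a change in the amount of a channel transcript could not be detected here. Fisher's exact test also pooled the brain parts and sexes. Take a probe set otherwise seen everywhere or nowhere, with a gain or loss confined to the cerebellum or to female cerebellum. It lies outside the 5 to 11 detected arrays and cannot reach an unadjusted p under 0.05 in the exact test. The absence of calls therefore does not bear on such changes, which are given below as counts with no test.

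The shares leaned slightly to WT. Of the 167 Kcn probe sets, 31 (18.6%) were detected on more WT arrays, 12 (7.19%) on more KO arrays and 124 on equally many, against 10.4% and 9.11% of all probe sets. In the cerebellum 55.1% ± 2.02 of Kcn probe sets were detected per WT array and 52.5% ± 2.99 per KO array, and in the rest of the brain 66.3% ± 1.5 and 64.1% ± 0.691 (SD, n = 4 each). The cerebellum ranges overlapped (52.1 to 56.3% and 48.5 to 55.1%), and those of the rest of the brain met at 64.7%. Across both parts the difference, KO minus WT, was -2.4 percentage points for Kcn and -0.267 for all probe sets. The KO male cerebellum replicate 2 had the fewest detected probe sets of all arrays, both over the whole array (25517) and among Kcn (81 of 167), and without it the Kcn difference was -0.994. Without the WT female cerebellum replicate 2 it was -3.03, and the WT cerebellum share was 54.7% ± 2.27 (SD, n = 3). Then 43 Kcn probe sets were detected on a higher share of WT arrays and 18 on a higher share of KO arrays. Leaving out each other array in turn gave differences down to -3.62, without the WT female cerebellum replicate 1. Leaving out 1 array makes the brain parts unequal in its genotype, so the difference between brain parts enters these values. They do not show a larger or smaller difference between genotypes. Of the 19 subfamilies, 13 had a higher mean share in WT, 3 in KO (Kv8, Kv9 and Slo3) and 3 were equal (Kv3, BK α, and Slack and Slick). The widest gap among subfamilies of at least 5 probe sets was that of Kv β, with 77.1% in WT and 68.8% in KO.

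Within each sex and brain part the comparison rests on 2 KO and 2 WT arrays, for which the smallest exact p is 0.333, so probe sets detected on both arrays of one genotype and neither of the other are given as counts with no test. In the female cerebellum 3 Kcn probe sets were seen in WT alone (0.71% of all probe sets were). They read Kcnab3 (1423950_at), Kcnh5 (1441742_at, eag2) and Kcnj14 (1452243_at), and for Kcnab3 and Kcnh5 1 of the KO arrays had a marginal call. The WT pair of this group includes the WT female replicate 2, and without it the counts rest on a single WT array. Seen in KO alone was Kcnmb4os2 (1454079_at; 0.743%), an RNA from the opposite strand at Kcnmb4 and not a channel, again with a marginal call on 1 WT array. In the male cerebellum 1 was seen in WT alone, Kcnq3 (1458421_at; 0.792%), whose other probe set was on all 16 arrays and which had a marginal call on 1 KO array, and 0 in KO alone (0.313%).

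In the rest of the brain the females had 1 in WT alone, 1457911_at of Kcna2 (0.49%), and 0 in KO alone (0.45%). The males had 1 in WT alone, 1442413_at of Kcna1 (0.448%), with a marginal call on 1 KO array, and 1 in KO alone, Kcnv2 (1440537_at, the silent subunit Kv8.2; 0.576%). Kcna1 and Kcna2, the main axonal Kv1 subunits, had other probe sets detected on all 16 arrays. None of these 8 probe sets repeated its pattern in the other sex of the same brain part. With the sexes together, no Kcn probe set was detected on all 4 arrays of one genotype and none of the other, in KO alone (0.00887% of all probe sets) or WT alone (0.0288%) in the cerebellum, or in KO alone (0.0155%) or WT alone (0.00443%) in the rest of the brain.

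Between the sexes, 2 Kcn probe sets separated the 4 female from the 4 male cerebellum arrays. Kcna6 (1441049_at, Kv1.6) was seen in the cerebellum of all 4 females and of no male (0.162% of all probe sets were), yet on all 8 Br arrays of both sexes, and another Kcna6 probe set, 1456954_at, on all 16. Kcne1l (1416640_at), an X-linked auxiliary subunit that newer annotation names Kcne5, was detected on all 4 male cerebellum arrays and no female one (0.0732%), but 3 of the 4 female arrays had a marginal call. It was detected on no Br array. In the rest of the brain 0 Kcn probe sets separated females (0.082%) or males (0.0399%). The smallest exact p for 4 against 4 arrays is 0.0286, before adjustment over all probe sets, so neither gene is a call.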

How the data were processed

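Total RNA from both brain parts of WT and KO mice was hybridised to Affymetrix arrays, 2 per genotype, sex and brain part. The authors' methods and the processing notes of the submission name the MAS5 algorithm, and the study's results name RMA normalization. The values deposited by the authors were taken as a score, since they hold 5 distinct numbers and not intensities; a value above 5e-38 was read as detected. The methods name a human array, whereas the probe sets carry the names of a mouse array. Gene symbols came from the platform annotation (34958 probe sets with 1 symbol, 932 with several, 9211 unnamed here), which is dated.

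Each probe set was tested with Fisher's exact test, two-sided, and Benjamini-Hochberg adjustment over the 3873 probe sets detected on 5 to 11 arrays. The ANOVA of the study's methods could not be run on calls. The members, subfamilies, marker and partner lists, the tests and that limit were chosen with earlier results of these data known. Named genes were those called, those detected on at least 7 of 8 arrays of one brain part and at most 1 of the other, those seen in 1 genotype alone, those on all or no arrays, and those with probe sets that differed by more than 8 arrays; others were chosen after their values were seen. Subfamily and class shares were not tested. Partner genes were counted in the same way.

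The alternatives were marginal values counted as detected, values below 0 left out, probe sets that can read several transcripts left out, counting by gene, adjustment over all probe sets, a stratified exact permutation test, a replicate block and leaving out each array. Per the methods, each brain was divided into both parts, and mice were matched by litter where possible. Whether the cb and Br arrays of 1 number come from 1 brain is not given in the sources used here. Fisher's exact test treated all arrays as independent, which cb and Br arrays from 1 brain would not be. Its p-values come from the counts of detected arrays alone and measure no spread between animals. The test was checked on simulated calls. Precision is limited by the number of arrays. Calls were read with pandas 2.3.3 and numpy 2.4.6, tested with scipy 1.17.1 and drawn with matplotlib 3.10.9, all under Python 3.11.15. Promoter sequences were taken from RefSeq.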

Additional observations from a re-analysis of the deposited data

Results flagged for a closer look

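Among the 8 cerebellum arrays, the WT female replicate 2 detected 5 of the 12 Kcn probe sets called higher in the rest of the brain (Kcnab3, Kcna4, Kcng1, Kcnq5 and Kcnv1), and stood far from the others in that count. The WT male replicate 2 detected 2, the KO female replicate 2 detected 1 and the other 5 arrays 0. The gap to the nearest array was 0.6 of the whole range, above Dixon's critical value for 8 arrays. For normally distributed values, chance passes that value in about 1 in 20 groups. This rate does not hold here, because the 12 probe sets were chosen by their calls on these same arrays. The counts are also small whole numbers with ties. The other counts and shares checked in this way did not pass the critical value. The gap is therefore a description and not a test. The WT female replicate 2 also had fewer granule and Purkinje cell marker probe sets than the other cerebellum arrays. It had more striatal and thalamic ones (81.8% of thalamus and midbrain marker probe sets, against 59.1 to 72.7%). Its share of cortex and hippocampus markers (53.3%) lay within that of the others (40 to 53.3%). The part of other tissue in its Kcn calls was not tested.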

How the results depend on the processing

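Of 173 alternative values, 136 were classed as the same as the reported value, 37 as moved and 0 as reversed. These classes are coarse. The KO minus WT share difference, -2.4 percentage points, was classed as the same at leave-out values from -3.62 to -0.994. The 12 calls higher in the rest of the brain became 0 with adjustment over all probe sets and 4 when counted by gene, 9 in the stratified permutation test (without Kcna4, Kcnf1 and Kcnq5), and 12 to 13 when each array was left out. The count called higher in the cerebellum, 0, became 1 with marginal values counted (Kcne1l). It was 1 by gene and 1 with the replicate block (Kcnk12 in both), and 0 to 1 when arrays were left out. The replicate block kept all 12 calls of the rest of the brain and called 0 between KO and WT. Arrays of the same number did not deviate together (correlations of -0.0181 to 0.0647 over 11269 probe sets). With calls and 2 arrays per group, this cannot show whether such arrays share a brain. The numbers were not taken as pairs in the main test. The share difference between brain parts was -8.63 percentage points by gene. Counted by gene, the probe sets seen in WT alone became 0 in the cerebellum of males and in the rest of the brain of either sex, and with marginal values counted they became 0 in the rest of the brain of males. When single arrays were left out, those seen in KO and WT alone were 4 to 5 and 3 to 9 in the cerebellum of females (9 without the WT replicate 1), 0 to 2 and 4 to 9 in that of males, 0 to 1 and 2 to 7 in the rest of the brain of females, and 1 to 2 and 2 to 3 in that of males, as each count then asks for 1 array fewer. The lone remaining array of a group then decides the call. Calls hold no amounts, and with 2 arrays per group no exact p within a sex and brain part can fall below 0.333.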

Other observations

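The RNA Kcnq1ot1, a long non-coding transcript from the imprinted Kcnq1 locus, was detected by 5 of its 6 probe sets on all 16 arrays, while Kcnq1 itself was detected on none. Kcnmb4os1 was detected on no array and Kcnmb4os2 on 12, as 6 cerebellum and 6 rest-of-brain arrays.

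Values below 0, whose meaning no source used here gives, made up 1.68% of the Kcn values and 1.46% of all values. Of the 45 Kcn values below 0, 12 belonged to the single probe set of Kcnj2, the inward rectifier Kir2.1, on all 8 rest-of-brain and 4 of 8 cerebellum arrays. Kcnn3, the small-conductance channel SK3, was below 0 on all 4 KO cerebellum arrays and on no WT cerebellum array, and on 3 rest-of-brain arrays. Only 4 of the 45101 probe sets were below 0 on all 4 KO and no WT cerebellum array, and 3 the other way round. This was chosen after its values were seen and was not tested.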
